A study of Homo sapiens with 6 samples.

Results

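Of the 55242 gene symbols counted in C4-2 prostate cancer cells, 22144 carry the name of a sequenced clone or a LINC number in place of a functional gene name, and 56 of these met a rule for lower counts after androgen treatment. The rule was applied to CPM (counts-per-million), the standard scaling of a count by the library total, here taken without ribosomal RNA genes. It asked for a mean CPM of 1 or more over the 6 libraries, which 2958 clone-named symbols reached, and for a log2 ratio of treated to control (each CPM plus 0.5) of -0.7 or less in all 3 same-numbered pairs of libraries. The 56 loci were therefore selected on the values that compare treated with control cells, and all such values of these loci are given as a description, without a test.

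C4-2 is an established castration-resistant subline of the androgen-sensitive prostate cancer line LNCaP. The cells were grown in medium with 5% serum and treated for 72 h either with the solvent DMSO (3 libraries) or with 1 nM R1881 (methyltrienolone), a metabolically stable synthetic androgen, at the supraphysiological androgen level called SAL (3 libraries). The comparison asks which transcripts respond to this androgen level, and the LNCaP libraries of the study were not analysed here.

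Androgens are steroid hormones that raise the transcription of some genes in prostate cells and lower that of others. A clone name is a provisional name that annotation of the human genome gives to a locus without a functional gene name. It is made of the name of the genomic clone or of its sequence record (the RP, CT and AC, AL or AP series) and a number behind a point. A LINC number marks a long intergenic noncoding RNA. Most such loci are long noncoding RNAs (lncRNAs), transcripts without an evident protein product, or pseudogenes, and lncRNAs as a class are usually less abundant and more restricted to cell types than messenger RNAs.

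The noncoding nature of the loci could be checked for few of them. In an annotation of genome build GRCh37 newer than the one used for counting, 2 of the 56 symbols were still present (3.57%), and both, LINC00632 and LINC00449, were annotated as lncRNAs. The type and the position of the other 54 loci were not examined here. By name, 43 of the 56 belonged to the RP series (35 of them to RP11), 9 to the AC, AL and AP series, 2 to the CT series and 2 to the LINC series. These were 2.14% of the 2012 RP symbols, 1.77% of the 508 AC, AL and AP symbols, 0.588% of the 340 CT symbols and 2.04% of the 98 LINC symbols with a mean CPM of 1 or more.

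The stretches around the transcription starts are shown for the only loci of the set with a RefSeq entry, since transcription factors bind DNA at short motifs, in part near starts. Each runs from 250 bases before to 50 bases after the start and is given 5′ to 3′ on the strand of the transcript, in RefSeq coordinates of GRCh38.p14. Capitals mark matches to the motifs listed after them. The LINC00449 stretch lies at chr13:99501014-99501313 on the minus strand, and the first of 3 LINC00632 starts at chrX:140709509-140709808 on the plus strand.
LINC00449: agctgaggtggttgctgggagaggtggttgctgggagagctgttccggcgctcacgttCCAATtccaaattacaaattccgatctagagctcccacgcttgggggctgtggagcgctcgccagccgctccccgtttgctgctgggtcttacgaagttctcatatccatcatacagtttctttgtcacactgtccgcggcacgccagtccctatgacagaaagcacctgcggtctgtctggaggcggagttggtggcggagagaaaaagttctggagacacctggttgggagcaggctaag
LINC00632: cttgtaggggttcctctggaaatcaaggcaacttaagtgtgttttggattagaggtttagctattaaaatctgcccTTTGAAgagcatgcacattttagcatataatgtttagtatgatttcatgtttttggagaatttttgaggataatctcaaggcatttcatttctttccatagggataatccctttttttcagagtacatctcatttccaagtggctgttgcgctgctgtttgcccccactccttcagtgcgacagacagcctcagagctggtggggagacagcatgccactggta

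The motifs reported are the TATA box (TATAAA or TTTATA), the CCAAT box (CCAAT or ATTGG), the SP1 box (GGGCGG or CCGCCC), a forkhead core (TGTTTAC or GTAAACA) and the cell cycle homology region CHR (TTTGAA or TTCAAA), each on both strands. The 4 RefSeq stretches of the 2 genes held no SP1 box or forkhead core, which among all 35116 human promoters of this length occurred in 45.0% and 3.42%. No match says only that these letters are not in these windows. The LINC00449 stretch held 1 CCAAT box, a motif in 34.6% of all promoters, and the LINC00632 stretch shown held 1 CHR letter match, found in 15.2%. TATA box letters, present in 11.5% of all promoters, occurred in the stretch of the third LINC00632 start, chrX:140782931-140783230. They lay at the upstream end of that stretch, away from the start itself, and the stretch also held 5 CCAAT matches and 1 CHR match (TTCAAA). The 2 genes differed in base composition. LINC00449 had 56.7% G and C bases and 16 CG dinucleotides, near the median promoter with 58.7% and 14. LINC00632 had 42% and 2 at its first start, below the lower quartile of all promoters, 47.0% G and C.

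The 6 libraries held 7864471 to 12532355 reads counted on genes, of which 11.9% to 27.8% lay on ribosomal RNA genes, leaving 6931042 to 9776990 counts. The luminal prostate markers were summed over 10 genes to 2768 to 5451 CPM in DMSO and 4903 to 9659 CPM in SAL. The androgen-induced KLK3, which encodes prostate-specific antigen, had 4741, 8779 and 4580 counts in DMSO and 11571, 23122 and 11449 in SAL. Markers of basal cells (3 genes), leukocytes (3), endothelium (2), stroma (4) and neuroendocrine cells (3) summed to at most 11.9 CPM in any library, with overlapping ranges of the groups for each list. KRT5, PTPRC, CD3E, CDH5 and COL1A2 had no counts at all. In bulk RNA a lower level can come from fewer cells with the transcript or from less of it per cell, and these cannot be told apart.

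As a group, the 56 loci fell from 786, 540 and 734 summed CPM in DMSO to 343, 202 and 298 in SAL. In the same-numbered pairs SAL held 43.6%, 37.4% and 40.6% of the DMSO sum. The 3 most counted loci supplied 45.2% of the summed level, and without them the shares were 43.99%, 36.7% and 40.2%. The other clone-named loci with a mean CPM of 1 or more held 98.4%, 101% and 97.2% of their DMSO sums, which were 26603, 18979 and 21557 CPM. Clone-named symbols as a whole took 2.12% to 2.96% of the counts in DMSO and 2.09% to 2.86% in SAL, so their total differed more between replicate numbers than between the treatments.

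**Figure D1:**
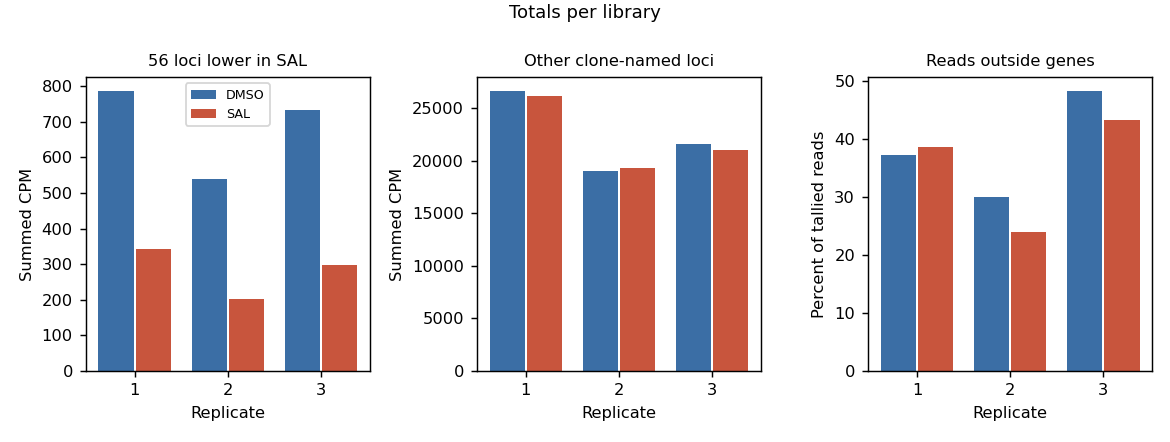
Summed CPM of the 56 loci (left), summed CPM of the other clone-named loci with a mean CPM of 1 or more (middle) and percent of tallied reads outside annotated genes (right), as 1 bar per library for replicates 1 to 3 of DMSO (blue) and SAL (red). The left bars fall from 786, 540 and 734 to 343, 202 and 298 CPM, while the middle bars of a pair stay within 3% of each other.

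The 56 loci were 1.89% of the 2958 clone-named loci that could have met the rule. The mirrored rule, a log2 ratio of 0.7 or more in all pairs, was met by 53 clone-named loci, or 1.79%. Among the 14542 other symbols with a mean CPM of 1 or more, 378 met the rule (2.60%) and 418 the mirrored rule (2.87%). The median clone-named locus had a mean log2 ratio of -0.13, against -0.09 for all 16835 genes kept for testing. With TMM scaling of the libraries the shift common to all genes was removed, and the medians were -0.05 for the clone-named loci and 0.00027 for all genes tested. On the TMM scale the median of the 56 loci moved from -1.17 to -1.10.

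**Figure D2:**
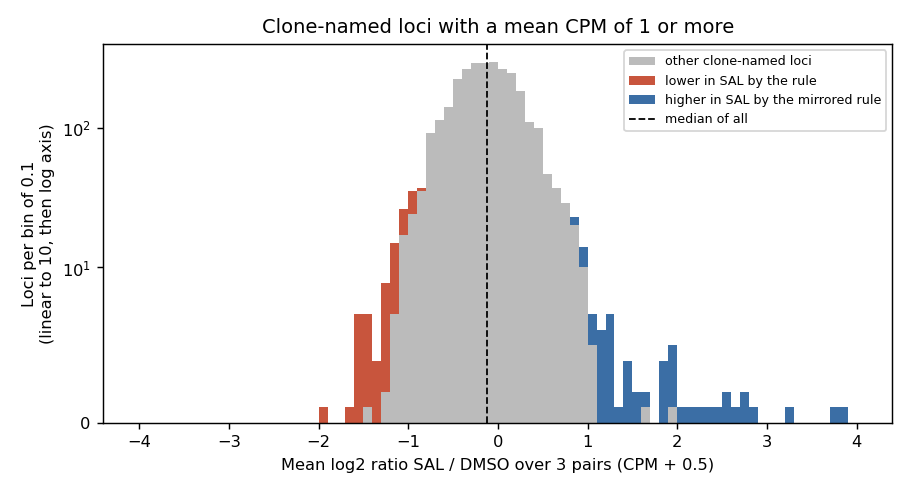
Number of the 2958 clone-named loci (y axis, linear to 10 and logarithmic above) per bin of 0.1 of the mean log2 ratio of SAL to DMSO over 3 pairs (x axis), with the 56 loci of the rule in red, the 53 of the mirrored rule in blue and the median of all dashed at -0.13. The red loci lie between -1.97 and -0.86, where other clone-named loci with less even pairs also lie.

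A fit across all genes (edgeR's quasi-likelihood test with the replicate number as a block and Benjamini-Hochberg adjustment) called 1577 of 16835 genes lower in SAL (9.37%) and 1931 higher (11.5%) at an adjusted p under 0.05. Of the 56 loci, 52 passed its filter on low counts and 51 of these were called lower. RP11-71H17.1 passed with 72 counts in all and was not called. RP1-122P22.2, RP11-760H22.2, RP11-464O2.2 and RP11-48G14.1, with 48 to 57 counts over the 6 libraries, were not kept for testing. Without the replicate block edgeR called 3 genes lower and 18 higher in all and 0 of the 56 loci (35 had an unadjusted p under 0.05), DESeq2 with the block called 25 of them, and edgeR without replicate 3 called 22. Since the rule and the fit used the same ratios, nothing is read from the share called. In 43 of the 56 loci every SAL library lay below every DMSO library, a pattern seen in 192 of the 2958 clone-named loci (6.49%), while 76 of the 2958 had every SAL library above every DMSO library. In the other 13 the groups overlapped although each pair fell.

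The level of the 56 loci was low. Mean CPM ranged from 1.05 to 78.8 with a median of 3.22, beside a median of 2.62 over the 2958 clone-named loci. Only 9 loci reached 10 CPM, 30 lay between 2 and 10 CPM, and 17 lay under 2 CPM. In 24 loci every library had 10 or more counts, while 32 had at least 1 library under 10. CPM values are not divided by transcript length, so their order is one of reads and not of molecules. SAL retained from 18.3% of the DMSO mean (RP11-823P9.3) to 53.6% (the fourth by mean CPM), with a median of 37.1%.

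RP11-181C21.4 was the most counted locus. It had 139, 94.1 and 108 CPM in DMSO and 50.05, 33.7 and 47.3 CPM in SAL, from 329 to 1142 counts. The lowest DMSO library stood well above the highest SAL library, and the mean fell from 114 ± 23.2 to 43.7 ± 8.79 CPM (SD, n = 3), or to 38.4%. The log2 ratios of the pairs were -1.47, -1.47 and -1.18.

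RP11-121G22.3 had 129, 64.7 and 131 CPM in DMSO and 66.2, 22.1 and 52.1 CPM in SAL. Replicate 2 was low in both groups, so that DMSO replicate 2 lay just under SAL replicate 1 and the groups overlapped. The fall within pairs was -0.96, -1.53 and -1.33 on the log2 scale, from means of 108 ± 37.8 to 46.8 ± 22.5 CPM (SD, n = 3).

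RP11-278C7.1 had 109, 79.4 and 73.6 CPM in DMSO and 46.5, 35.3 and 29.3 CPM in SAL. Its groups were apart, with means of 87.3 ± 19.04 and 37.01 ± 8.72 CPM (SD, n = 3), and its pairs were close together at -1.22, -1.16 and -1.31. With 240 to 893 counts in every library, it and RP11-181C21.4 rest on the most reads of the set among loci without overlap.

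The fourth locus by mean CPM, also of the RP11 series, resembled RP11-121G22.3 in its low replicate 2. It had 50.8, 19.9 and 43.1 CPM in DMSO and 29.3, 8.39 and 23.3 CPM in SAL, with overlapping groups and pair ratios of -0.78, -1.20 and -0.87. It also kept the largest share of its DMSO mean. AC072062.1 had 38.8, 25.7 and 45.2 CPM in DMSO and 16.02, 13.8 and 20.6 CPM in SAL. All 3 SAL libraries were lower than all DMSO libraries, with pair ratios of -1.25, -0.87 and -1.11. RP11-417L14.1 had 32.1, 19.4 and 23.4 CPM in DMSO and 19.1, 9.41 and 11.5 CPM in SAL. Its groups were apart by little, 19.4 against 19.1 CPM, and its pair ratios of -0.73, -1.003 and -0.996 reached close to the limit of the rule in pair 1.

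The deepest relative falls were found at loci with few reads. RP11-823P9.3 had 52, 27 and 43 counts in DMSO and 6, 10 and 10 in SAL, or 6.35, 3.79 and 6.20 against 0.740, 1.02 and 1.22 CPM. No SAL library came near the DMSO range, and the mean fell from 5.45 ± 1.44 to 0.994 ± 0.242 CPM (SD, n = 3), the lowest remaining share of the set at 18.3%. The pair ratios were -2.47, -1.49 and -1.96.

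RP5-855F14.1 had 30, 67 and 50 counts in DMSO and 8, 25 and 14 in SAL, or 3.66, 9.40 and 7.21 against 0.986, 2.56 and 1.71 CPM. Here replicate 1 was the lowest of both groups, and the pairs fell evenly by log2 ratios of -1.49, -1.69 and -1.80. RP11-366L5.1 had 59, 93 and 86 counts in DMSO and 26, 33 and 26 in SAL. Its SAL libraries were nearly equal at 3.20, 3.38 and 3.17 CPM, below DMSO values of 7.21, 13.04 and 12.4 CPM.

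LINC00632, the intergenic lncRNA whose start is printed above, had 45, 35 and 23 counts in DMSO and 20, 8 and 6 in SAL. These were 5.50, 4.91 and 3.32 against 2.47, 0.818 and 0.732 CPM, with no overlap, and the mean fell from 4.58 ± 1.13 to 1.34 ± 0.977 CPM (SD, n = 3), or to 29.3%. Pair 1 fell least, with ratios of -1.02, -2.04 and -1.63.

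RP11-720L2.2 had 14, 12 and 27 counts in DMSO and 5, 1 and 6 in SAL, and RP11-292D4.1 had 12, 17 and 15 in DMSO and 3, 6 and 1 in SAL. Both were apart between the groups, but a SAL library of each had a single read, so that their pair ratios, from -0.99 to -1.86 and from -1.18 to -2.10, have a wide counting error. Their ratios also depend on the pseudocount. The mean over pairs was -1.56 for RP11-720L2.2 and -1.55 for RP11-292D4.1 with 0.5 CPM added, and -2.25 and -2.30 with 0.1 CPM added. Adding 0.5 CPM thus gave less negative ratios than adding 0.1 CPM, and the size of the change at both loci is uncertain.

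**Figure D3:**
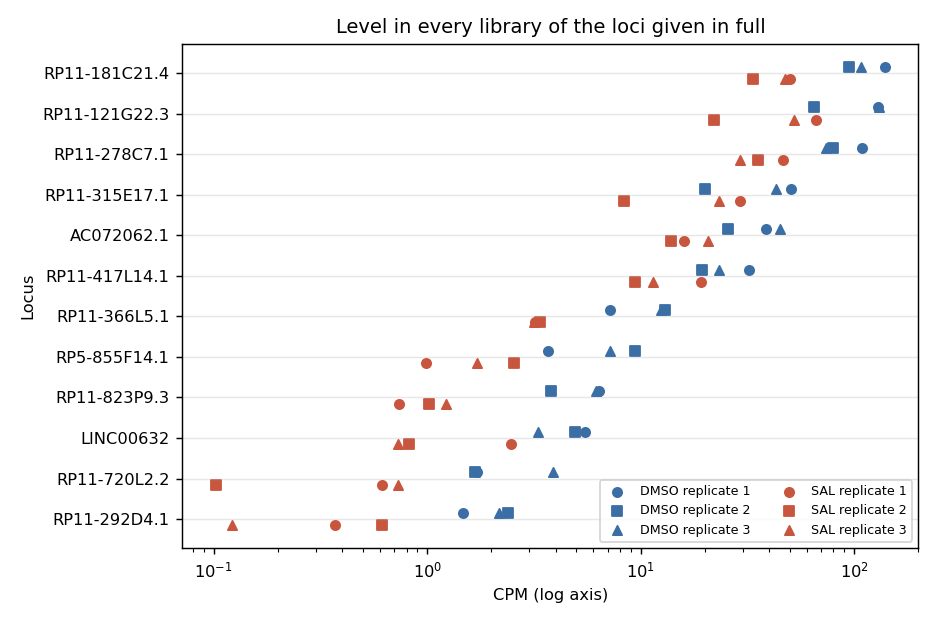
Level in CPM (x axis, logarithmic) of 12 loci (y axis), the 6 with the highest mean CPM and the 6 with the lowest mean log2 ratio, with 1 point per library (blue DMSO, red SAL; circle, square and triangle for replicates 1, 2 and 3). Red points lie left of all blue points in 10 of the 12, and RP11-121G22.3 and the fourth locus from the top overlap because replicate 2 is low in both groups.

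Of the 11 further loci named by count or by fall, RP1-281H8.3 had 265, 186 and 132 counts in DMSO and 118, 93 and 81 in SAL. RP11-597D13.9 had 190, 117 and 190 against 87, 39 and 71 counts. RP11-57A19.2 had the most even DMSO level, 14.3 ± 0.935 CPM, and 6.12 ± 1.30 CPM in SAL (SD, n = 3). For each of them all SAL libraries lay below all DMSO libraries in CPM. RP11-678L1.1, RP11-269C4.2, RP11-94L15.2 and a locus of the RP5 series had mean log2 ratios of -1.34, -1.48, -1.32 and -1.48. AC106873.4 had 43, 15 and 32 counts in DMSO and 10, 3 and 15 in SAL, and AC007743.1 had 18, 12 and 16 against 1, 7 and 4. RP11-483C6.1 and CTC-830E23.1 overlapped between the groups. The former had 112, 19 and 54 counts in DMSO and 47, 13 and 36 in SAL, the latter 62, 25 and 39 against 31, 6 and 10, and their mean log2 ratios were -0.91 and -1.53.

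The other 33 loci had mean levels of 1.05 to 5.03 CPM and mean log2 ratios of -1.48 to -0.86, with a median of -1.06, and 24 of them did not overlap between the groups. A single value of 0 occurred in the set, for RP11-48G14.1 in SAL replicate 2, where a count of 0 allows up to 0.307 CPM (3 counts of that library, counting error only). RP11-48G14.1 had 16, 6 and 14 counts in DMSO and 7, 0 and 5 in SAL, and it was also the locus just above the CPM limit, at a mean of 1.05 CPM, followed by RP11-464O2.2 at 1.06 and RP11-551L14.4 at 1.11. Just below that limit, with ratios that met the rule, were AC136289.1 at 0.936, CTD-3065B20.3 at 0.826 and RP11-692M12.5 at 0.755 CPM. The least negative pair ratios inside the rule were -0.72 for RP11-1109M24.5 and -0.73 for RP11-10G15.4 and RP11-417L14.1. Just outside were RP11-17G12.2 at -0.698 and RP11-151A6.4 and LINC00341 at -0.69. The set thus has no gap at its edges.

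The pairs did not fall by the same amount. The median log2 ratio of the 56 loci was -0.999 in pair 1, -1.26 in pair 2 and -1.18 in pair 3, and the 2958 clone-named loci showed the same order of pairs, at -0.07, -0.19 and -0.15. The largest fall of a locus was in pair 2 for 28 of the 56 loci and in pairs 1 and 3 for 14 each. The ratios of the 56 loci ran from -2.47 to -0.73 in pair 1, from -2.04 to -0.73 in pair 2 and from -2.10 to -0.72 in pair 3. The SD between the 3 pairs of a locus had a median of 0.229 on the log2 scale, beside 0.382 for the clone-named loci as a whole, and a rule that asks for 3 low ratios favours even ones.

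**Figure D4:**
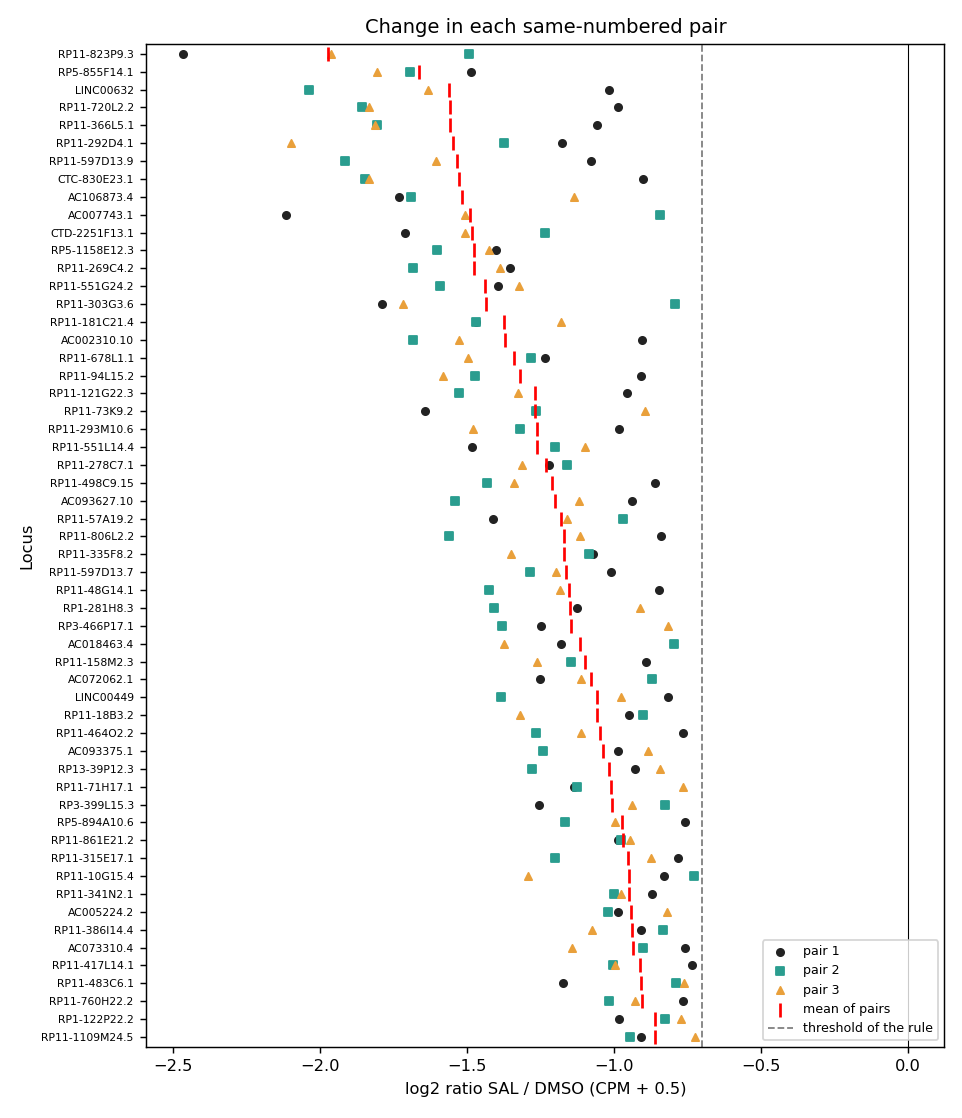
Log2 ratio of SAL to DMSO (x axis, CPM plus 0.5) of each of the 56 loci (y axis, sorted by mean) in pair 1 (circle), pair 2 (square) and pair 3 (triangle), with the mean as a red bar and the limit of the rule at -0.7 dashed. Means run from -1.97 for RP11-823P9.3 to -0.86 for RP11-1109M24.5, and all points lie left of the limit because the rule chose them so.

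The level of the loci also varied between replicates within a group. In DMSO, 33 of the 56 loci were lowest in replicate 2, 17 in replicate 1 and 6 in replicate 3, and in SAL 31, 17 and 8. Over the 2958 clone-named loci replicate 2 was lowest in 50.7% in DMSO and 55.7% in SAL, replicate 1 in 31.0% and 24.1%, and replicate 3 in 18.3% and 20.1%. The same replicate was lowest in both groups for 46 of the 56 loci (replicate 2 for 29, replicate 1 for 13, replicate 3 for 4). Over the 2958 clone-named loci this share was 67.3%, with 40.03%, 16.9% and 10.4% for replicates 2, 1 and 3. A rule that favours even pair ratios also favours loci whose replicates run in parallel, so nothing is read from the difference. Loci of both kinds were among the set: RP11-121G22.3 and RP11-483C6.1 were lowest in replicate 2, while RP11-94L15.2, RP5-855F14.1 and RP11-498C9.15 were lowest in replicate 1. RP11-498C9.15 had 18, 71 and 61 counts in DMSO and 8, 33 and 26 in SAL, so replicate 1 of DMSO lay below replicates 2 and 3 of SAL.

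Library composition moved with the replicate number as well. Reads outside annotated genes made up 37.3%, 30.1% and 48.3% of the tallied reads in DMSO and 38.6%, 24.0% and 43.3% in SAL. They were fewest in replicate 2 of each group, where most of the 56 loci, and most of the clone-named loci as a whole, were lowest. Between the treatments the share was lower in SAL in pairs 2 and 3 and higher in pair 1, and pair 1 had the smallest median fall. The part of this share in the values of the loci was not tested.

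Loci named after the same clone lie within one stretch of genomic clone. Apart from the 2 LINC loci, the 56 loci came from 53 named clones, with the number behind the point removed. The clone of RP11-597D13.9 was the only one with more than 1 of them. It also gave RP11-597D13.7 with 55, 14 and 53 counts in DMSO and 25, 5 and 25 in SAL, and in both loci replicate 2 was lowest in both groups.

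The counting table listed 69 other loci on 31 of these clones, of which 9 had a mean CPM of 1 or more, each on a clone of its own. Of these, 4 were lower in SAL in all pairs (among them AC002310.12, AC093627.9 and RP5-894A10.2), 2 were higher in all pairs and 3 went both ways, beside 28.2% and 12.7% of the 2958 clone-named loci lower and higher in all pairs. The remaining locus that was lower, of the RP11 series, had the deepest mean fall of the 9, a log2 ratio of -0.80. It had 17, 20 and 12 counts in DMSO and 14, 8 and 6 in SAL. Its groups were apart by little, 1.731 against 1.726 CPM, and edgeR did not call it (adjusted p 0.133). RP11-386I14.3 was one of the loci that were higher, with 268, 131 and 129 counts in DMSO and 389, 247 and 234 in SAL, or log2 ratios of 0.54, 0.45 and 0.60. Its clone neighbour RP11-386I14.4, one of the 56, had 32, 21 and 43 counts in DMSO and 15, 14 and 22 in SAL. RP13-39P12.2 was the other, with 7, 8 and 9 counts against 9, 14 and 19, beside 21, 21 and 24 against 9, 9 and 14 for RP13-39P12.3 of the set. AC002310.12 had 204, 113 and 71 counts in DMSO and 134, 117 and 81 in SAL, with log2 ratios of -0.58, -0.39 and -0.05. All these directions are of CPM without TMM scaling, where the median mean log2 ratio of all genes tested was -0.09. A ratio as small as -0.05 therefore gives no clear direction. RP11-158M2.5, RP11-18B3.3 and RP11-71H17.9 went both ways. A further member of the same clone with strong falls would itself belong to the set, so these 9 are a description.

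RP11-1109M24.5, the locus with the smallest mean fall, had 32, 23 and 26 counts in DMSO and 15, 14 and 17 in SAL. It was not matched itself, but 7 other loci of its clone were annotated as pseudogenes on chromosome 17 of GRCh37, from 21825740 to 21911558. Loci with near-identical copies can share or lose reads in counting, so its values are uncertain if it is of the same kind, which was not examined.

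The 2 loci with a position each overlap another gene. LINC00632 spans chrX:139791727-139875380 on the plus strand of GRCh37, with 29 annotated transcripts. No protein-coding gene lay within 100 kb of it in this annotation. Within its exons and on the opposite strand lies CDR1 (chrX:139865743-139866531, 789 bases, annotated as lncRNA). The strand opposite to CDR1, that of LINC00632, is known for an abundant circular RNA of the brain. CDR1 was singled out after its values were seen. It had 2148, 352 and 287 counts in DMSO and 1474, 204 and 187 in SAL. Replicate 1 was far above the others in both groups, so the groups overlapped, and the pair ratios were -0.53, -1.22 and -0.85. In the fit across all genes its log2 fold change was -0.75 (SE 0.12) with an adjusted p of 0.000361 by edgeR, which ranged from 2.89e-10 to 1.00 over the alternatives, the latter without the replicate block. The overlap of exons is that of this newer annotation, and whether the exons used for counting overlap was not examined. Counting took no account of strand, so reads of either strand at CDR1 cannot be told apart, nor can linear and circular RNA.

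LINC00449 had 12, 21 and 20 counts in DMSO and 5, 8 and 10 in SAL, or 1.47, 2.95 and 2.89 against 0.616, 0.818 and 1.22 CPM, without overlap. It has 1 annotated transcript with exons at chr13:100151981-100152194 and chr13:100152649-100153306 on the minus strand of GRCh37. It lies inside the span of TM9SF2 (chr13:100098565-100216302, plus strand), which encodes a membrane protein of the endosome and Golgi, and starts 420 bases before the start of the canonical TM9SF2 transcript on the opposite strand. In this annotation, newer than the one used for counting, their exons share 222 bases. Without strand, reads in bases shared by both genes cannot be assigned, and the overlap in the counting annotation was not examined.

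TM9SF2, the single protein-coding neighbour of the set that could be examined, had 1424, 1182 and 1145 counts in DMSO and 2092, 1547 and 1674 in SAL. Pairs 1 and 3 rose by log2 ratios of 0.57 and 0.31 and pair 2 gave -0.07. In TMM-scaled CPM the means were 163 ± 11.8 in DMSO and 214 ± 49.3 in SAL (SD, n = 3). The fit across all genes called it higher (log2 fold change 0.37, SE 0.11, edgeR adjusted p 0.0233). Its adjusted p ranged from 0.000904 to 1.00 over the alternatives. The call was lost without replicate 1 (adjusted p 0.0578), without replicate 3 (0.337) and without the replicate block (1.00). LINC00449 and the gene it faces thus had opposite signs in pairs 1 and 3. The pair ratios are of CPM without TMM scaling, where the median ratio of all genes tested in pair 2 was -0.13. The TM9SF2 ratio of -0.07 in that pair therefore gives no clear direction.

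The 56 loci were set beside lncRNAs that have names of their own. Of a list of 44 such lncRNAs, which the rule leaves out, 38 were in the counting table and 26 passed the filter of the fit. By edgeR, 7 of these 26 were lower in SAL (26.9%), 4 were higher (15.4%) and 15 were not called, beside 9.37% and 11.5% of all genes. The list was chosen with earlier results of these data known, so the shares are a description and nothing is read from their difference. The median log2 fold change of the 26 was -0.07, against -0.0011 for all genes tested.

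HOXA11-AS, the antisense transcript of the homeobox gene HOXA11, had the largest fall of the 7. It had 24, 33 and 22 counts in DMSO and 4, 12 and 11 in SAL, with all SAL libraries below all DMSO libraries, and a log2 fold change of -1.71 (SE 0.37, adjusted p 0.00383). MIR17HG, the host transcript of a cluster of growth-promoting microRNAs, had 420, 96 and 146 counts in DMSO and 215, 66 and 114 in SAL. Its groups overlapped and the log2 fold change was -0.76 (adjusted p 0.00156). CRNDE, KCNQ1OT1, an antisense transcript of an imprinted domain, and DLEU2 were lower by log2 fold changes of -0.68, -0.60 and -0.59, at adjusted p values of 0.00110, 0.000401 and 0.00666. DLEU1 (-0.37, adjusted p 0.0331) and GAS5 (-0.34, adjusted p 0.0313), a host of small nucleolar RNAs, were called as well. GAS5 had 3973, 703 and 743 counts in DMSO and 2574, 712 and 747 in SAL, so replicate 1 stood far above the rest. In replicates 2 and 3 its counts were slightly higher in SAL, whose libraries were larger. Its log2 ratios in CPM were -0.61, -0.43 and -0.23. Apart from HOXA11-AS, the groups of all these lower lncRNAs overlapped in CPM.

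Among the lncRNAs that rose, SOCS2-AS1, an antisense transcript at SOCS2 known as androgen-induced, had 10, 11 and 8 counts in DMSO and 82, 109 and 85 in SAL, with a log2 fold change of 3.10 (SE 0.26, adjusted p 4.72e-07). MIR22HG, the host of another microRNA, rose from 73, 49 and 78 to 174, 157 and 179 counts, a log2 fold change of 1.24 (adjusted p 4.99e-05). PCAT6 had 9, 19 and 6 against 14, 54 and 23 counts (log2 fold change 1.21, adjusted p 0.0206), and the nuclear lncRNA MALAT1 had 140339, 69874 and 168585 against 228840, 105383 and 326148 counts (log2 fold change 0.62, adjusted p 0.00240). The groups of PCAT6 and MALAT1 overlapped in CPM, while those of SOCS2-AS1 and MIR22HG did not. The prostate cancer lncRNA PCA3 had a log2 fold change of -0.29 that was not called (adjusted p 0.0839).

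Several of these calls depended on single replicates or on the tool. KCNQ1OT1, DLEU2 and MALAT1 were not called without replicate 3 (adjusted p 0.0642, 0.159 and 0.277). DLEU1 and GAS5 were called in no fit that left out a replicate, and DESeq2 gave adjusted p of 0.189 and 0.0778. PCAT6 was not called by DESeq2 (0.165), without replicate 2 (0.117) or without replicate 3 (0.204). Without the replicate block only SOCS2-AS1 was still called (0.0470).

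**Figure D5:**
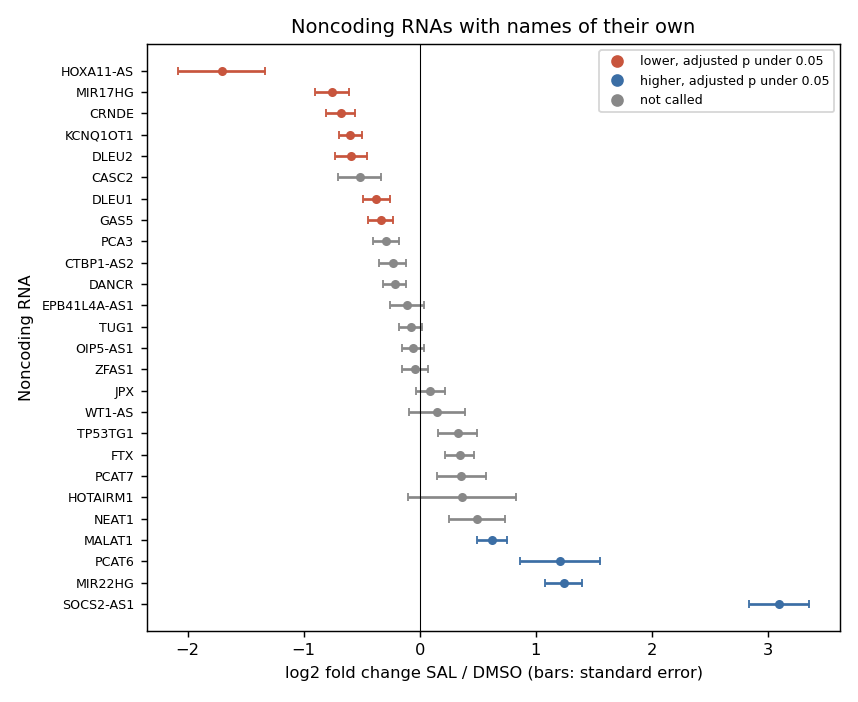
Log2 fold change of SAL against DMSO from edgeR (x axis) of 26 lncRNAs with names of their own (y axis, sorted), with bars of 1 standard error, red and blue for an adjusted p under 0.05 (7 lower, 4 higher) and grey for the rest. HOXA11-AS at -1.71 and SOCS2-AS1 at 3.10 lie at the ends, and most of the others lie between -0.8 and 0.8.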

How the data were processed

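RNA-seq libraries of C4-2 cells were analysed, 3 treated with DMSO and 3 with SAL, grouped and numbered as in the labels. The authors trimmed the reads, aligned read 1 only to hg19 with TopHat2 2.1.0 and Bowtie, and counted reads on gencode exons without regard to strand with HTSeq 0.11.2. The deposited values are raw counts per gene symbol (55765 symbols), not normalized. The 5 tallies of HTSeq (such as reads outside genes) were kept out of library sizes and tests. As in the study, the 523 ribosomal RNA symbols were removed.

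The loci and the gene lists were chosen with earlier results of these data known. The rule used CPM from column sums and same-numbered pairs. The fit across all genes used the quasi-likelihood test of edgeR 4.0.16 (filterByExpr, TMM, replicate number as a block as in the study's paired test, robust dispersions, Benjamini-Hochberg adjustment, threshold 0.05) in R 4.3.3, with limma 3.58.1. Standard errors were derived from the fold change and the F statistic. The deviations of same-numbered libraries from their group means correlated at 0.887, 0.856 and 0.739. The study states independent repeats, while the labels give only numbers. With the replicate block, p-values measure the spread of the treatment difference between these same-numbered pairs, and not the spread between single libraries. The fit was tested on simulated counts.

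Named loci are the 15 with the highest mean CPM and the 10 with the lowest mean log2 ratio, the values of every library being given for the 6 first of each. The 3 loci nearest each limit, loci of the same clone with a mean CPM of 1 or more, protein-coding neighbours within 100 kb and the called lncRNAs of the list are also named. RP11-498C9.15, RP11-71H17.1, RP11-597D13.7, RP11-386I14.4, RP13-39P12.3, LINC00449, PCA3 and CDR1 were added after their values were seen. Alternatives were no replicate block, DESeq2 1.42.0, other scalings, filters, thresholds and pseudocounts, ribosomal RNA kept, and leaving out each replicate. A check of gene length or base composition was void, since only 2 of the 56 loci (3.57%) had a position. Some promoter motifs that were searched are not reported here.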

Additional observations from a re-analysis of the deposited data

How the results depend on the processing

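Leaving out the pairing changed the fit most. Without the replicate block edgeR called 3 genes lower and 18 higher in place of 1577 and 1931, 0 of the 56 loci in place of 51 (35 had an unadjusted p under 0.05), 0 and 1 of the named lncRNAs in place of 7 lower and 4 higher (3 had an unadjusted p under 0.05), and 0 neighbours in place of 1. DESeq2 with the block called 852 genes lower and 25 of the loci. At an adjusted p under 0.01, 876 genes were lower, 1234 higher, 33 loci lower and 0 neighbours higher. With at least 10 counts in every library, 24 loci and 2 lncRNAs (higher) were called, since fewer were tested. Leaving out 1 replicate gave 483 to 1955 genes lower, 750 to 2443 higher, 22 to 45 loci called, 3 to 6 lncRNAs lower, 2 to 6 higher and 0 to 1 neighbour higher, in each case with the fewest without replicate 3 (for the neighbour also without replicate 1), and the cause was not tested. The number of loci that met the rule was 137 at a log2 ratio of -0.5 or less, 17 at -1 or less, 36 with 1 CPM added, 10 where every SAL library was compared with every DMSO library, and 98 to 159 over 2 of the 3 pairs, with 159 without replicate 1, 118 without replicate 2 and 98 without replicate 3. The number was 49 with TMM scaling, 52 with ribosomal RNA kept, 70 and 39 with limits of 0.5 and 2 CPM, and 84 with 0.1 CPM added. Of the values for single genes, 86 kept their side of the threshold and 28 lost it, none turned its direction, and 79 of 84 mean ratios of loci moved by less than the SD between pairs. Depth limits the 32 loci with a library under 10 counts.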
